A study of Mus musculus with 12 samples.

Results

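The 9 transcription factor genes that build or mark the myeloid lineage examined here were followed through 12 RNA sequencing libraries of mouse monocytes. Spi1, Cebpa, Cebpb, Cebpd, Klf2, Klf4, Id2, Runx1 and Sox4 were chosen by name, with earlier results of these data known. They are 9 of the 53819 genes listed for each library. All 9 were among the 13151 genes with enough counts to be tested. Every library came from bone marrow monocytes of C57Bl6J mice of WT genotype, and the 4 groups held 3 libraries each. PLT_LPS cells spent a night with platelets, were washed, and were then stimulated with lipopolysaccharide (LPS), a bacterial cell wall component that acts through Toll-like receptor 4. LPS cells received LPS without platelets, PLT cells received the overnight platelets without LPS, and NC cells received neither. Not given in the sources used here are the age and sex of the mice, the ratio of platelets to monocytes, and the dose and duration of LPS. Nor is it stated that replicates are separate mice or cultures, so p-values measure spread between libraries only, and this may be technical.

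Monocytes arise from bone marrow progenitors under a small set of transcription factors that act in layers. PU.1, encoded by Spi1, and the C/EBP proteins open and occupy the enhancers of myeloid genes, RUNX1 acts upstream of them in stem and progenitor cells, and KLF4 is required for monocytes to form. Id2 restrains E proteins during dendritic and lymphoid cell choices, KLF2 holds back inflammatory activation, and Sox4 is a gene of immature cells. In mature cells several of these genes are also regulated by stimulation: C/EBP beta and C/EBP delta are known partners of NF-kappa B in the response to LPS.

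The libraries held 20060867 to 32155727 counts, and levels are given in CPM, counts brought to a common scaled library total, on which 3 counts correspond to 0.0854 to 0.1635 CPM. Monocyte markers summed to 34792 to 37421 CPM in PLT_LPS, 31306 to 34971 CPM in LPS, 37496 to 40629 CPM in PLT and 31738 to 35368 CPM in NC libraries, and 7 of the 8 averaged at least 1 CPM in every group. By gene the list was mixed, at an adjusted p under 0.05 in the edgeR test described below. Of the 8 tested, 2 were higher and 2 lower in PLT_LPS than in LPS cells (median log2 −0.16), against 7.28% of all tested genes. In PLT against NC cells 1 was higher and 1 lower (median −0.13), against 6.49%. LPS raised 4 and lowered 1 in cells without platelets (against 50.7%), and raised 5 and lowered 2 in platelet-exposed cells (against 49.4%). PLT replicate 1 stood apart: its title and treatment label name platelets while its description reads "Control", and its chi-square per degree of freedom was 69.1 and 75.8 against the other PLT libraries, where other pairs within groups gave 6.29 to 19.8. It was the highest PLT library for 8 of the 9 factors, though NC replicate 3 was likewise the highest NC library for 7 of them. Its erythroid markers summed to 24.5 CPM, against 13.8 and 11.9 CPM in PLT replicates 2 and 3 and 1.12 to 1.61 CPM in NC libraries. Its neutrophil markers summed to 203 CPM, against 226 and 216 CPM in those PLT replicates and 363 to 387 CPM in NC libraries. These are bulk samples, in which fewer cells of a type and less RNA per cell cannot be told apart.

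Promoter sequence is shown for 3 of the genes described below, which are the only ones whose examined stretch held the letters TGACG. LPS moved them in opposite directions: Cebpb was higher with LPS, whereas Klf2 was lower with it, and Klf4 was lower with it in platelet-exposed cells. Each stretch runs from base −250 to base −31 before the gene's RefSeq start, 5′ to 3′ on the gene's own strand (GRCm38.p6). The Cebpb stretch is at chr2:167688665-167688884 on the plus strand, the Klf2 stretch at chr8:72318812-72319031 on the plus strand, and the Klf4 stretch at chr4:55532506-55532725 on the minus strand. Capitals mark the letters TGACG, read on either strand (so also CGTCA), which are the core of the cyclic AMP response element bound by CREB and ATF proteins, and in Klf2 also CTAAATTTAG, a match to the letters bound by MEF2 proteins (CTA, 4 bases of any kind and TAG).
Cebpb: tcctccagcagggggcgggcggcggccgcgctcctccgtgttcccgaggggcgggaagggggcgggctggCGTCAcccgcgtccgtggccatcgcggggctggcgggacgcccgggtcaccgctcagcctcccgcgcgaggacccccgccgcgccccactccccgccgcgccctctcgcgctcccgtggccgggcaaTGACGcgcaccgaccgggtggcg
Klf2: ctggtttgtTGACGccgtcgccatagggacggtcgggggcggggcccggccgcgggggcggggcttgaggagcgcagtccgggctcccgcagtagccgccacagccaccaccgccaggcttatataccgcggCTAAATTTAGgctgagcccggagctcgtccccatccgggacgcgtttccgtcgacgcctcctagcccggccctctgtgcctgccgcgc
Klf4: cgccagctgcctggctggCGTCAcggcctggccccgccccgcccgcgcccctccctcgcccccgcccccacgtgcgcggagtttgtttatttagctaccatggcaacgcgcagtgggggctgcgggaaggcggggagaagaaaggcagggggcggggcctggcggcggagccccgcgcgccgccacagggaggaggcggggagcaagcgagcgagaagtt

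The Cebpb stretch held TGACG letters starting at bases −180 and −53, the Klf2 stretch at −241 and the Klf4 stretch at −232. MEF2 factors acting through such an element are the known route by which flow induces KLF2 in endothelial cells, and the Klf2 match lay at bases −118 to −109. RefSeq entries matched 7 of the 9 genes with 8 starts, since Runx1 has a distal and a proximal one, and Spi1 and Cebpd were not matched. TGACG was found in 3 of the 8 stretches and in 14.8% of 32841 mouse promoters cut to the same window, the MEF2 letters in 1 of 8 and 2.83%, and the GC box GGGCGG in 3 of 8 and 28.5%. The full element TGACGTCA, which contains TGACG, was in 0 of the 8 and in 1.14% of all promoters. Letters bound by NF-kappa B (GGG, 2 bases of any kind and TTTCC), C/EBP (TTGCNNAA), ETS proteins (GGAAGT) and AP-1 (TGANTCA) and the TATA box (TATAAA) were in 0 of the 8 stretches, against 1.17%, 8.78%, 16.5%, 6.12% and 9.95% of all promoters. A match or its absence describes only these letters in this window. The windows differed in composition: GC content was 81.4% with 37 CpG pairs in Cebpb and 47.3% with 2 CpG pairs at the distal Runx1 start.

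The 4 comparisons and their interaction were tested with edgeR's quasi-likelihood test, adjusted by the Benjamini-Hochberg method over all 13151 genes, and a gene is called changed at an adjusted p under 0.05. LPS raised Spi1, Cebpb, Cebpd and Id2 and lowered Klf2, Runx1 and Sox4, which is 7 of the 9 factors, in cells without platelets. Of all tested genes 50.7% changed there, 27.7% upward and 23% downward. In platelet-exposed cells LPS raised the same 4 and lowered Klf2, Klf4 and Sox4, again 7 of 9, against 49.4% of all tested genes (27.6% upward, 21.8% downward). Platelets before LPS left Cebpb, Klf2 and Id2 higher and Cebpd lower than LPS alone, 4 of 9 against 7.28% of tested genes (4.41% higher, 2.87% lower). Platelets without LPS left Klf2, Id2 and Sox4 higher and Runx1 lower than in NC cells, 4 of 9 against 6.49% of tested genes (3.63% higher, 2.86% lower). The median log2 fold change over the 9 was 0.23 for PLT_LPS against LPS and 0.27 for PLT against NC, where the medians over all tested genes were 0.01 and 0.00. These comparisons share libraries: the NC libraries serve the PLT and the LPS comparison, and the PLT_LPS libraries serve both comparisons with LPS and with PLT.

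**Figure D1:**
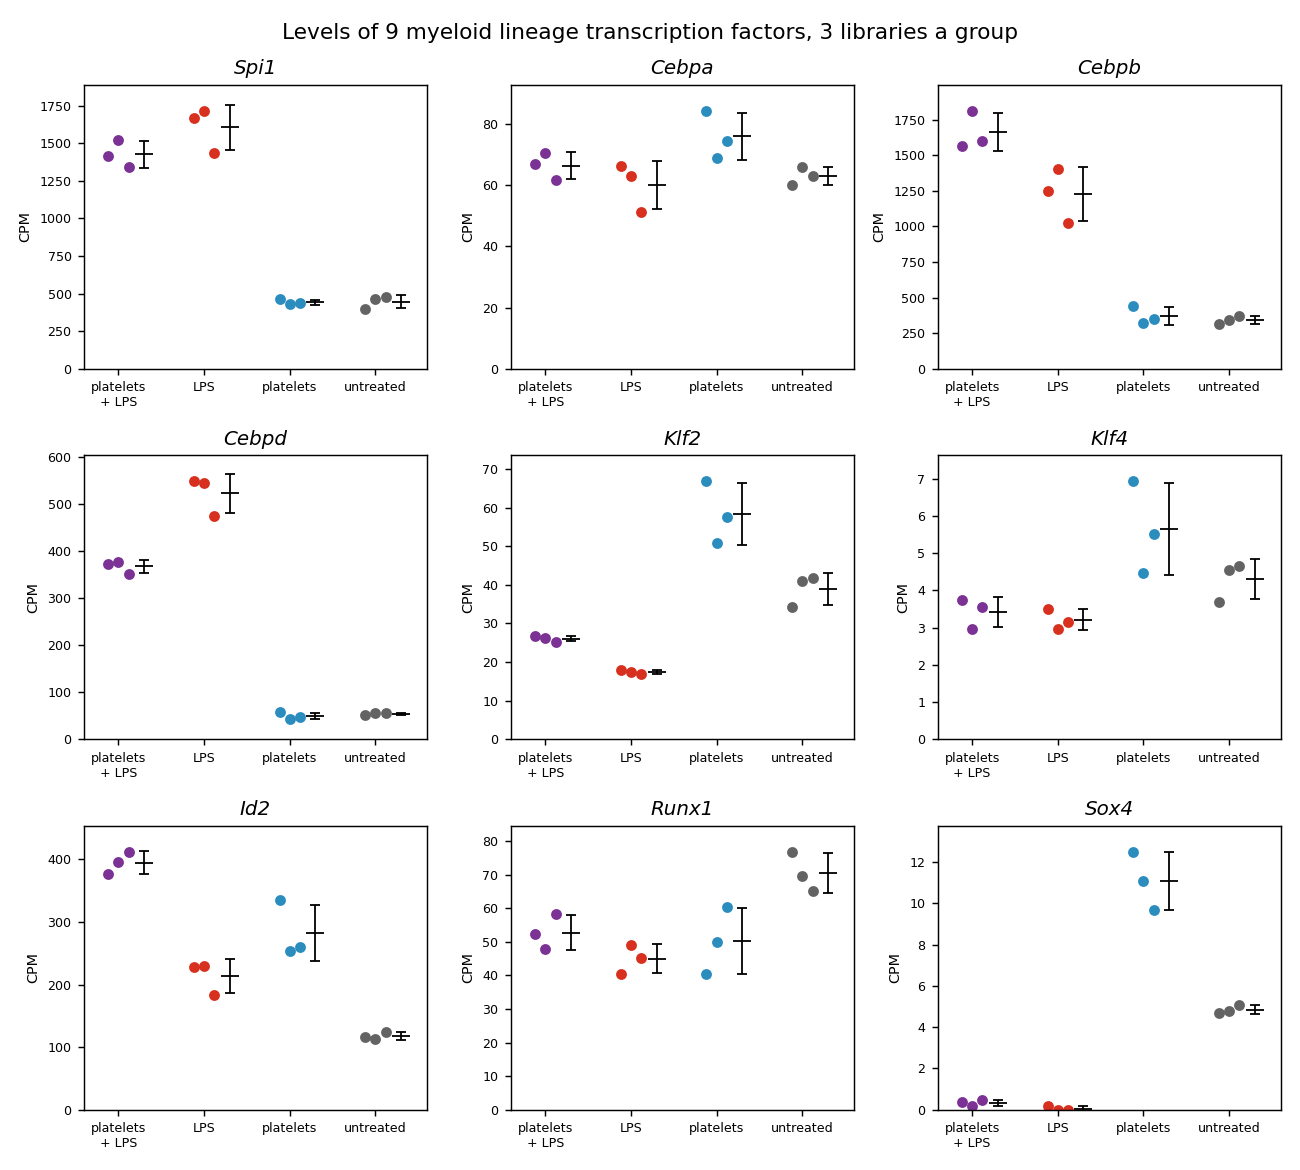
Level of each factor in CPM (y axis, linear from 0, a scale of its own in each panel) in PLT_LPS, LPS, PLT and NC cells; each point is 1 library, and the bar beside it is the mean with its SD (n = 3). Spi1, Cebpb and Cebpd are high in both LPS groups, Klf2 and Id2 are higher with platelets at both levels of LPS, and Sox4 is close to 0 in both LPS groups.

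Set on a common scale of CPM per kilobase of merged exons (GENCODE M21), Cebpb and Spi1 were the highest of the 9 in all 4 groups. Cebpb averaged 1104 ± 88.0 CPM per kb in PLT_LPS, 814 ± 127 in LPS, 245 ± 42.3 in PLT and 227 ± 19.5 in NC cells, with Spi1 at 529 ± 33.5, 596 ± 55.1, 164 ± 6.34 and 166 ± 16.4 (SD, n = 3 each). Merged exons count the bases of all annotated transcripts, such as 3746 for Cebpd and 12025 for Runx1, and not the length of the transcripts present. Any order between genes rests on these lengths, which overlap between libraries does not test. Below Cebpb and Spi1 the order in NC cells on this scale was Id2, Cebpa, Klf2, Cebpd, Runx1, Klf4 and Sox4, with no overlap between the libraries of neighbours. Cebpd took the fourth place in PLT_LPS cells and the third in LPS cells, against the sixth in PLT and in NC cells. In PLT cells the libraries of Klf2 and Cebpa overlapped, at 31.6 ± 4.35 and 28.8 ± 2.94 CPM per kb, as did those of Sox4 and Klf4, at 2.31 ± 0.29 and 1.85 ± 0.41, so neither pair can be ordered. Summed without regard to length, the 9 genes made up 3855 to 4252 CPM in PLT_LPS, 3236 to 4027 CPM in LPS, 1228 to 1505 CPM in PLT and 1056 to 1211 CPM in NC libraries.

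Spi1 encodes PU.1, the ETS-family factor whose amount steers progenitors towards the macrophage fate and which marks enhancers in macrophages. It was the factor with the plainest pattern: high with LPS, low without, and not called for platelets. Its level was 1417, 1521 and 1341 CPM in the 3 PLT_LPS libraries and 1665, 1717 and 1438 CPM in the LPS libraries. PLT libraries had 462, 428 and 439 CPM, and NC libraries had 397, 463 and 481 CPM. Every library with LPS lay above every library without it, whereas PLT_LPS overlapped LPS and PLT overlapped NC. LPS raised it 3.22-fold in platelet-exposed cells (log2 1.69, SE 0.09, edgeR adjusted p = 2.53e-10) and 3.59-fold in cells without platelets (log2 1.85, SE 0.09, adjusted p = 8.16e-11). The platelet difference was −0.17 on the log2 scale after LPS, with a 95% interval of −0.36 to 0.02 and an adjusted p of 0.320, and −0.01 without LPS, with an interval of −0.20 to 0.18 and an adjusted p of 0.962.

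Cebpa encodes C/EBP alpha, needed for granulocyte and monocyte progenitors to arise. Its level was 66.7, 70.4 and 61.8 CPM in PLT_LPS and 66.0, 63.0 and 51.3 CPM in LPS libraries. PLT libraries had 84.2, 68.9 and 74.3 CPM and NC libraries 59.9, 65.9 and 63.0 CPM. The groups lay within a narrow band, and PLT stood clear of NC, a separation that 25.1% of all tested genes also showed. No comparison called it: the platelet difference without LPS was log2 0.27 (SE 0.11, adjusted p = 0.161), and the LPS difference was −0.06 (SE 0.11, adjusted p = 0.654) in cells without platelets. In platelet-exposed cells the LPS difference was −0.19 (SE 0.11, adjusted p = 0.146). The LPS values depended on scaling: with upper-quartile factors they were −0.27 (adjusted p = 0.0422) without platelets and −0.44 (adjusted p = 0.00245) with them, where the median of all genes moved by −0.20 and −0.24.

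Cebpb encodes C/EBP beta, which drives macrophage cytokine genes and emergency granulopoiesis. It was highest in PLT_LPS cells, at 1567, 1812 and 1601 CPM, against 1245, 1404 and 1025 CPM in LPS cells. Without LPS it was 440, 318 and 348 CPM in PLT and 312, 343 and 371 CPM in NC libraries. PLT_LPS did not overlap LPS, and PLT overlapped NC. LPS raised it 4.50-fold in platelet-exposed cells (log2 2.17, SE 0.13, adjusted p = 9.25e-10) and 3.58-fold in cells without platelets (log2 1.84, SE 0.13, adjusted p = 6.14e-09). Platelets before LPS left it 1.36-fold above LPS alone (log2 0.44, SE 0.13, adjusted p = 0.0473). That last call sat at the threshold: leaving out 1 library at a time gave log2 values of 0.33 to 0.55 and adjusted p-values of 0.00531 to 0.200, and the call was lost without any one of 8 libraries, which were all NC and PLT_LPS replicates and LPS replicates 1 and 3. The platelet difference without LPS was log2 0.11 (95% interval −0.16 to 0.38, adjusted p = 0.684).

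Cebpd encodes C/EBP delta, which is nearly silent in resting macrophages and is known to sustain the transcriptional response to lasting LPS. It was the factor that LPS raised the most. Its level was 373, 377 and 351 CPM in PLT_LPS and 548, 544 and 474 CPM in LPS libraries. PLT libraries had 57.4, 43.4 and 47.6 CPM and NC libraries had 51.1, 55.2 and 55.4 CPM. All PLT_LPS values lay below all LPS values, while PLT overlapped NC. LPS raised it 7.42-fold in platelet-exposed cells (log2 2.89, SE 0.11, adjusted p = 2.01e-12) and 9.68-fold in cells without platelets (log2 3.28, SE 0.11, adjusted p = 4.91e-13). After LPS it was 1.42-fold lower with platelets than without (log2 −0.51, SE 0.10, adjusted p = 0.00483), and it stayed called with each library left out, at log2 −0.57 to −0.47. Without LPS the platelet difference was −0.12 (95% interval −0.34 to 0.09, adjusted p = 0.532). The difference between the platelet effects with and without LPS was −0.38 (SE 0.14), with an adjusted p of 0.298, and was not called.

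After LPS the platelet differences of Cebpb and Cebpd had opposite signs, and the ratio of their counts within a library does not depend on how libraries are scaled. Cebpb counts were 4.20, 4.81 and 4.56 times Cebpd counts in PLT_LPS and 2.27, 2.58 and 2.16 times in LPS libraries. They were 7.67, 7.34 and 7.30 times in PLT and 6.11, 6.20 and 6.70 times in NC libraries. No groups overlapped: the ratio was lowest with LPS alone, and platelet-exposed cells had the higher ratio both with and without LPS. The mean was 4.52 ± 0.30 in PLT_LPS against 2.34 ± 0.22 in LPS cells and 7.44 ± 0.20 in PLT against 6.34 ± 0.32 in NC cells (SD, n = 3 each). The two-sided exact permutation p was 0.1 for each of the 4 comparisons, which is the smallest value that 3 against 3 libraries allow. With 1 library left out, the log2 ratio of PLT_LPS over LPS was 0.90 to 1.03. The ratio shows unequal change and not which gene changed. Exons of Tmem189 and Spidr overlap those of Cebpb and Cebpd on the opposite strand, and no source used here gives the strand setting, so reads from the shared bases cannot be told apart; those genes had 1290 to 5791 and 527 to 1253 counts, against 8909 to 43083 for Cebpb and 1387 to 15132 for Cebpd.

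**Figure D2:**
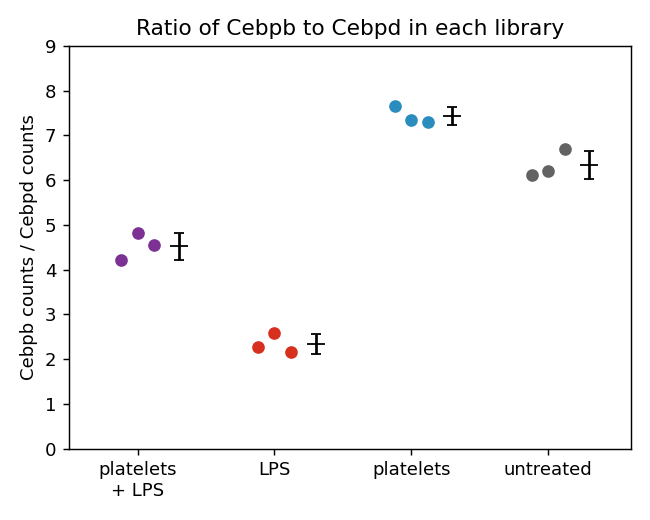
Cebpb counts divided by Cebpd counts (y axis, linear from 0) in PLT_LPS, LPS, PLT and NC cells; each point is 1 library, and the bar is the mean with its SD (n = 3). The 3 PLT_LPS libraries lie between 4.20 and 4.81, all above the LPS libraries at 2.16 to 2.58.

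Among the KLF zinc finger factors, Klf2, which restrains the inflammatory programme of monocytes, moved in opposite directions with platelets and with LPS. Its level was 26.6, 26.3 and 25.2 CPM in PLT_LPS and 17.9, 17.4 and 16.8 CPM in LPS libraries. It was 66.8, 50.8 and 57.4 CPM in PLT and 34.2, 40.9 and 41.7 CPM in NC libraries. No groups overlapped, with PLT the highest, then NC, then PLT_LPS, and LPS the lowest. Platelets left it higher by a log2 of 0.58 after LPS (SE 0.11, adjusted p = 0.00498) and by the same 0.58 without LPS (SE 0.11, adjusted p = 0.00397). LPS lowered it 2.24-fold in platelet-exposed cells (log2 −1.16, SE 0.11, adjusted p = 2.57e-07) and 2.24-fold in cells without platelets (log2 −1.16, SE 0.11, adjusted p = 3.19e-07). The difference between the platelet effects with and without LPS was 0.0004 on the log2 scale and was not called. Its SE is unreliable for a value this close to 0, since it is derived from the fold change and the F statistic, so no interval is given. Without PLT replicate 1, the platelet effect on Klf2 was log2 0.50 (adjusted p = 0.00371) without LPS.

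Klf4, required for monocyte differentiation and for patrolling monocytes, was a low gene here. Its level was 3.75, 2.96 and 3.56 CPM in PLT_LPS and 3.51, 2.97 and 3.16 CPM in LPS libraries. PLT libraries had 6.93, 4.47 and 5.52 CPM, and NC libraries had 3.68, 4.56 and 4.66 CPM. PLT_LPS overlapped LPS and PLT overlapped NC, whereas PLT_LPS lay below PLT and LPS below NC. LPS lowered it 1.64-fold in platelet-exposed cells (log2 −0.72, SE 0.21, adjusted p = 0.00862). In cells without platelets the LPS difference was −0.42 (SE 0.21, adjusted p = 0.112), and upper-quartile factors gave −0.62 (adjusted p = 0.0220). The difference between these LPS effects is the interaction, at −0.30 with an adjusted p of 0.825. The platelet difference was log2 0.09 (95% interval −0.36 to 0.55) after LPS and 0.39 (−0.04 to 0.82) without it, with adjusted p-values of 0.873 and 0.305.

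Id2 encodes a helix-loop-helix protein without a DNA-binding region, which holds E proteins off DNA and is required for several dendritic and innate lymphoid cells. It had the largest called platelet effect of the 9 in log2 terms in both platelet comparisons. Its level was 377, 396 and 412 CPM in PLT_LPS and 229, 230 and 183 CPM in LPS libraries. It was 335, 253 and 260 CPM in PLT and 116, 113 and 124 CPM in NC libraries. No groups overlapped, with PLT_LPS the highest, then PLT, then LPS, and NC the lowest. Platelets left it 1.84-fold higher after LPS (log2 0.88, SE 0.11, adjusted p = 0.000159) and 2.41-fold higher without LPS (log2 1.27, SE 0.11, adjusted p = 3.89e-06). LPS raised it 1.40-fold in platelet-exposed cells (log2 0.48, SE 0.11, adjusted p = 0.00212) and 1.82-fold in cells without platelets (log2 0.87, SE 0.11, adjusted p = 9.68e-06). The rise in platelet-exposed cells was not called with upper-quartile factors (log2 0.24, adjusted p = 0.0862) or with library size alone (log2 0.13, adjusted p = 0.266). Without PLT replicate 1, the platelet effect on Id2 without LPS was log2 1.15 (adjusted p = 1.26e-07). The difference between its platelet effects with and without LPS was −0.38 (SE 0.16, adjusted p = 0.385).

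Markers of other cells moved with the platelet groups beside Klf2 and Id2. Of 14 tested platelet and megakaryocyte markers, 9 were higher and 1 lower in PLT_LPS than in LPS cells, and 8 were higher and 1 lower in PLT than in NC cells. Their summed level was 3740 to 4013 CPM in PLT_LPS, 3906 to 4720 CPM in LPS, 3531 to 6376 CPM in PLT and 3791 to 4500 CPM in NC libraries, with 3 of the 16 markers at 0 in both LPS and NC cells. The 6376 CPM belong to PLT replicate 1. Pf4, the platelet factor 4 gene, made up most of that sum in every group, at 3515 ± 162 CPM in PLT_LPS, 4166 ± 439 in LPS, 4124 ± 1401 in PLT and 3843 ± 365 in NC cells (SD, n = 3 each). Erythroid markers summed to 7.08 to 9.35 CPM in PLT_LPS, 0.04 to 0.65 CPM in LPS, 11.9 to 24.5 CPM in PLT and 1.12 to 1.61 CPM in NC libraries. Neutrophil markers were lower in sum with platelets, without overlap, at 181 to 199 CPM in PLT_LPS against 254 to 319 CPM in LPS libraries and 203 to 226 CPM in PLT against 363 to 387 CPM in NC libraries. Mmp8, the neutrophil collagenase gene, made up most of that sum and was called lower in both (log2 −0.93, adjusted p = 3.65e-05, and log2 −1.03, adjusted p = 1.15e-05). The list did not fall as a whole. Of 8 tested neutrophil markers, 0 were higher and 1 lower in PLT_LPS than in LPS cells, with a median log2 of 0.35. In PLT against NC cells 1 was higher and 1 lower, with a median of 0.26. Dendritic cell markers summed to 87.9 to 100.5 CPM in PLT_LPS and 76.7 to 92.7 CPM in LPS libraries, which overlap, and to 6.88 to 9.25 CPM in PLT against 2.41 to 4.66 CPM in NC libraries, where 3 of 7 tested were called higher. Basophil and mast cell markers summed to 82.8 to 94.1 CPM in PLT_LPS against 104 to 107 CPM in LPS libraries. Without LPS the sums went the other way, at 8.27 to 9.96 CPM in PLT against 1.65 to 2.74 CPM in NC libraries. In LPS cells 7 of the 8 markers of that list averaged under 1 CPM, so the sum there rested mostly on a single gene. By gene, 2 of 6 tested were higher and 0 lower in PLT_LPS than in LPS cells (median log2 2.54), against 7.28% of all tested genes called. In PLT against NC cells 4 were higher and 0 lower (median log2 1.64), against 6.49% called. In sum, the dendritic cell list and the basophil and mast cell list were thus far higher with LPS than without it. By gene they were mixed in cells without platelets, where 50.7% of all tested genes were called. Of 7 tested dendritic cell markers LPS raised 4 and lowered 1. Of 6 tested basophil and mast cell markers it raised 2 and lowered 2, with a median log2 of −1.35. The T and NK cell list stayed under 1 CPM in sum, with Cd3e at 0 in all 12 libraries. What part these RNAs have in the values of the 9 factors was not tested.

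Runx1 encodes the DNA-binding partner of CBF beta, needed for blood stem cells to form and for opening of the Spi1 enhancer in progenitors. It was highest in NC cells. Its level was 52.2, 47.7 and 58.3 CPM in PLT_LPS and 40.5, 49.2 and 45.3 CPM in LPS libraries. PLT libraries had 40.5, 49.96 and 60.2 CPM, and NC libraries had 76.8, 69.5 and 65.2 CPM. The 3 treated groups overlapped one another, and all of their libraries lay below the NC libraries. LPS lowered it 1.57-fold in cells without platelets (log2 −0.65, SE 0.13, adjusted p = 0.000669). Platelets without LPS lowered it 1.40-fold (log2 −0.49, SE 0.13, adjusted p = 0.0371). Without PLT replicate 1, the lowest PLT library for this gene, that value was −0.33 with an adjusted p of 0.109, and with each library left out in turn the adjusted p was 0.00653 to 0.171, the call being lost without any one of 7 libraries (every NC replicate, PLT replicates 1 and 2, LPS replicate 3 and PLT_LPS replicate 1). In platelet-exposed cells LPS made a difference of 0.07 (95% interval −0.21 to 0.35, adjusted p = 0.694), and after LPS platelets made one of 0.23 (−0.05 to 0.51, adjusted p = 0.380). The interaction was log2 0.72 (SE 0.19, adjusted p = 0.0781), the smallest adjusted p of the 9 factors, and it was called by DESeq2 (log2 0.69, adjusted p = 0.0310) and not by limma-voom.

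Sox4, an HMG-box factor of progenitor cells, was present without LPS and close to 0 with it. Its level was 0.364, 0.171 and 0.470 CPM in PLT_LPS libraries, from 10, 4 and 12 counts. LPS libraries had 0.181, 0 and 0 CPM, from 5, 0 and 0 counts, and 3 counts in the libraries at 0 would be 0.1219 and 0.1635 CPM. PLT libraries had 12.5, 11.1 and 9.68 CPM and NC libraries 4.66, 4.80 and 5.07 CPM, from 133 to 355 counts. Every library with LPS lay far below every library without it, PLT lay above NC, and PLT_LPS overlapped LPS. LPS lowered it 32.2-fold in platelet-exposed cells (log2 −5.01, SE 0.37, adjusted p = 1.06e-08) and 64.9-fold in cells without platelets (log2 −6.02, SE 0.49, adjusted p = 3.53e-08), the second resting on 5 counts in 1 LPS library. Platelets without LPS left it 2.28-fold higher (log2 1.19, SE 0.27, adjusted p = 0.0157). That call was lost without NC replicate 1 (adjusted p = 0.0777), NC replicate 2 (adjusted p = 0.0794) or PLT replicate 2 (adjusted p = 0.0516), with log2 values of 1.17 to 1.19. After LPS the platelet difference was 2.20 (SE 0.71, adjusted p = 0.0768), and DESeq2 called it (log2 2.26, adjusted p = 0.0231). Its size rests on few counts: leaving out 1 library at a time gave log2 1.62 to 6.24 and adjusted p-values of 0.00779 to 0.228, the highest value being without LPS replicate 1, which leaves 0 counts in the LPS group.

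**Figure D3:**
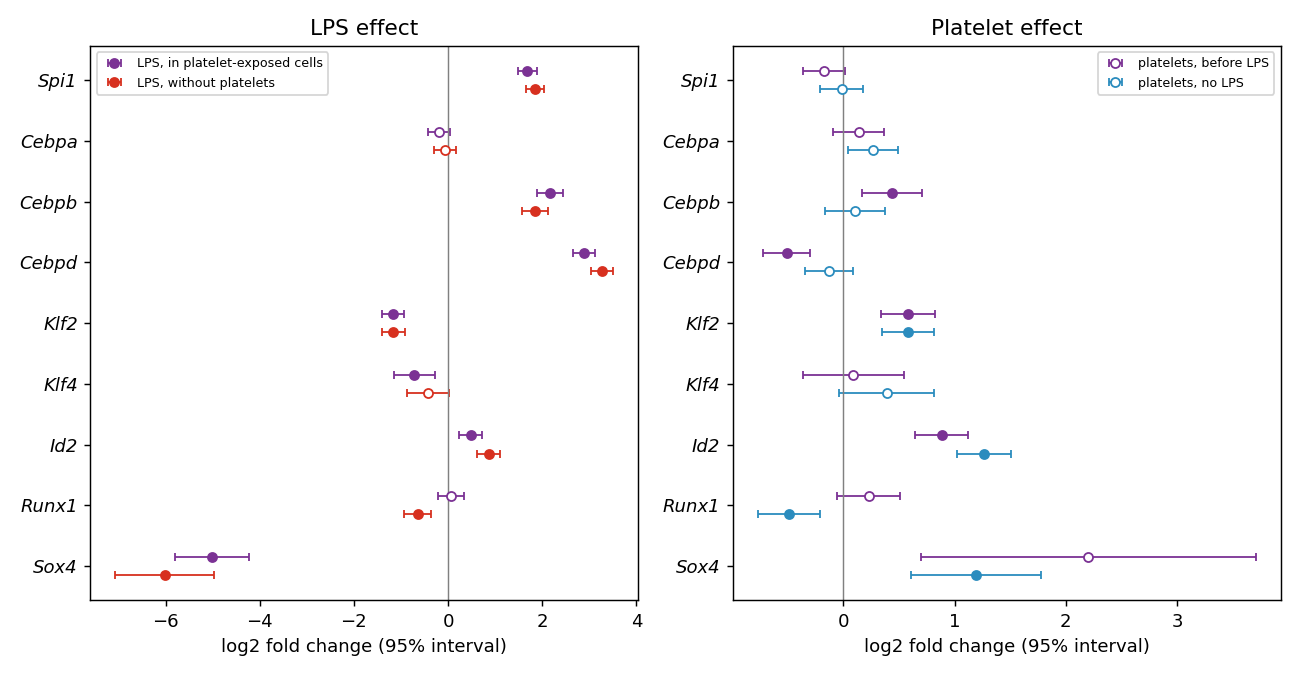
Log2 fold change of each factor (x axis) with its 95% interval, for the LPS effect (left panel) and the platelet effect (right panel); filled points have an edgeR adjusted p under 0.05, and open points do not. Cebpd has the largest LPS rise, at 2.89 and 3.28, Sox4 the largest fall, and Klf2 the same platelet effect, 0.58, with and without LPS.

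The interaction asks whether the platelet effect differed between cells given LPS and cells not given it. It called 0 of the 9 factors with edgeR, where 1.58% of all tested genes were called. At an unadjusted p under 0.05 it held 3 of the 9, namely Cebpd, Id2 and Runx1, where 10.6% of all tested genes passed. DESeq2 called 1 and limma-voom called 0.

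The genes whose levels followed each factor most closely over the 12 libraries were sought among tested genes averaging at least 10 CPM. With Spi1 these were Ube2f and Tma16 (Pearson r 0.997 for both), with Cebpb Junb (0.996) and Nfkbil1 (0.993), and with Cebpd Fas and Gspt1 (0.998 for both). With Klf2 they were Cdk4 (0.981) and Ntpcr (0.980), with Klf4 Ocel1 and Oard1 (0.941 for both), and with Cebpa Alyref (0.939) and Cd37 (0.938). Id2 was followed by Csrp1 (0.969) and Tpi1 (0.966), Runx1 by Piezo1 (0.965) and Myh9 (0.918), and Sox4 by Mrpl49 and Trim47 (0.988 for both). Junb is itself a transcription factor gene induced by stimulation, and Fas encodes a death receptor. Among the factors themselves, Spi1 and Cebpd had an r of 0.996, Klf2 and Sox4 one of 0.957, and Cebpd and Sox4 one of −0.963. The points share 4 groups and their LPS contrast, so these values describe likeness of pattern in 12 libraries and nothing more.

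Relatives and partners of the factors were examined as lists, whose counts stand against the shares of all tested genes called: 50.7% for LPS in cells without platelets and 49.4% in platelet-exposed cells, and 7.28% and 6.49% for platelets with and without LPS. In the C/EBP list of 9 tested genes, which includes the Tribbles genes and the ubiquitin ligase gene Cop1, 0 were higher and 2 lower in PLT_LPS than in LPS cells, with a median log2 of −0.10 over the list and 0.01 over all genes. TRIB1 and TRIB2 act with COP1 to degrade C/EBP alpha, an activity not known of TRIB3. The called genes were Trib3, at 2.07 ± 0.98 CPM in PLT_LPS against 7.71 ± 1.20 CPM in LPS cells (log2 −1.90, SE 0.29, adjusted p = 0.000837), and Cop1, at 86.8 ± 2.03 against 118 ± 5.39 CPM (log2 −0.45, SE 0.08, adjusted p = 0.00333). LPS without platelets raised 3 and lowered 4 of the list, among them Cop1 (log2 1.94) and Trib3 (2.02) upward and Cebpz (−0.95) downward. Platelets without LPS changed 0 of the 9 in edgeR, with 2 at an unadjusted p under 0.05, where 19.9% of all tested genes passed. LPS in platelet-exposed cells raised 2 and lowered 4.

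Of 14 tested KLF and SP relatives, 2 were higher and 3 lower in PLT_LPS than in LPS cells. Klf10, an early gene of TGF beta signalling, was at 42.6 ± 3.44 CPM in PLT_LPS against 23.9 ± 1.61 CPM in LPS cells (log2 0.83, SE 0.14, adjusted p = 0.00153), and Klf13 had a log2 of 0.69 (adjusted p = 0.00270). Klf6, which promotes inflammatory macrophage activation, was lower, at 276 ± 9.29 CPM in PLT_LPS against 360 ± 17.1 CPM in LPS cells (log2 −0.38, SE 0.07, adjusted p = 0.00404). LPS without platelets raised 7 and lowered 4, among them Klf7 (log2 1.40) and Klf8 (2.33) upward and Klf10 (−2.04) downward. Platelets without LPS changed 0 of the 14 in edgeR, with 3 at an unadjusted p under 0.05.

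Of 16 tested Spi1 relatives of the ETS family, LPS raised 4 and lowered 6 in cells without platelets. Spic, the PU.1 relative of red pulp macrophages, was at 149 ± 14.0 CPM in LPS against 2.63 ± 0.89 CPM in NC cells (log2 5.82, SE 0.18, adjusted p = 1.93e-13), while Etv5 (log2 −4.33) and Fli1 (−2.63) fell. PLT_LPS cells had less Spic than LPS cells, at 84.0 ± 8.81 CPM (log2 −0.82, SE 0.14, adjusted p = 0.00140), and more Elk3, a repressor that answers to MAP kinases, at 53.9 ± 2.67 against 34.1 ± 1.94 CPM (log2 0.66, SE 0.08, adjusted p = 0.000101). These were the only called ETS relatives in that comparison. Spic was higher with platelets in cells without LPS (log2 0.72, adjusted p = 0.0299), a call lost in 5 of 21 alternatives.

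Relatives of Id2 and Runx1 were fewer. Of 5 tested ID and E protein genes, LPS without platelets raised Tcf4 (log2 0.79) and Id3 (0.84) and lowered 3, Id1 by the most (log2 −4.32, adjusted p = 3.23e-12). Id1 alone was higher in PLT_LPS than in LPS cells, at 8.83 ± 1.39 against 4.90 ± 0.28 CPM (log2 0.85, SE 0.17, adjusted p = 0.00570), and limma-voom did not call it. In platelet-exposed cells LPS raised 2 and lowered 2 of these genes. Of 5 tested RUNX genes and cofactors, Runx3 was called: it was at 6.07 ± 0.72 CPM in PLT_LPS against 2.28 ± 0.93 CPM in LPS cells (log2 1.43, SE 0.23, adjusted p = 0.00118), and LPS lowered it both with platelets (log2 −1.02) and without (−2.42). Of 11 other SOX genes, 1 was tested, and the list summed to at most 0.615 CPM in any library.

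Other monocyte, macrophage and dendritic cell factors gave 5 higher and 2 lower of 24 tested in PLT_LPS against LPS cells. Nr1h3, which encodes the liver X receptor alpha, was at 162 ± 6.01 CPM in PLT_LPS against 65.9 ± 5.05 CPM in LPS cells (log2 1.29, SE 0.11, adjusted p = 1.12e-06), and Irf8, a factor of monocyte and dendritic cell progenitors, at 186 ± 6.14 CPM in PLT_LPS against 108 ± 13.3 CPM in LPS cells (log2 0.78, SE 0.09, adjusted p = 4.90e-05). LPS without platelets raised 10 and lowered 10 of the 24. Tfec, a relative of the microphthalmia factor found in macrophages, was at 117 ± 1.79 CPM in LPS against 15.7 ± 1.26 CPM in NC cells (log2 2.91, SE 0.10, adjusted p = 6.64e-13). Gfi1, a repressor known from granulocytes, was at 10.9 ± 2.25 CPM in LPS and 0.01 ± 0.02 CPM in NC cells. Platelets without LPS raised Nr1h3 (log2 1.37, adjusted p = 1.06e-06) and Bhlhe40 (1.36, adjusted p = 4.21e-05) and lowered 2, Pparg among them (−0.57, adjusted p = 0.00924).

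**Figure D4:**
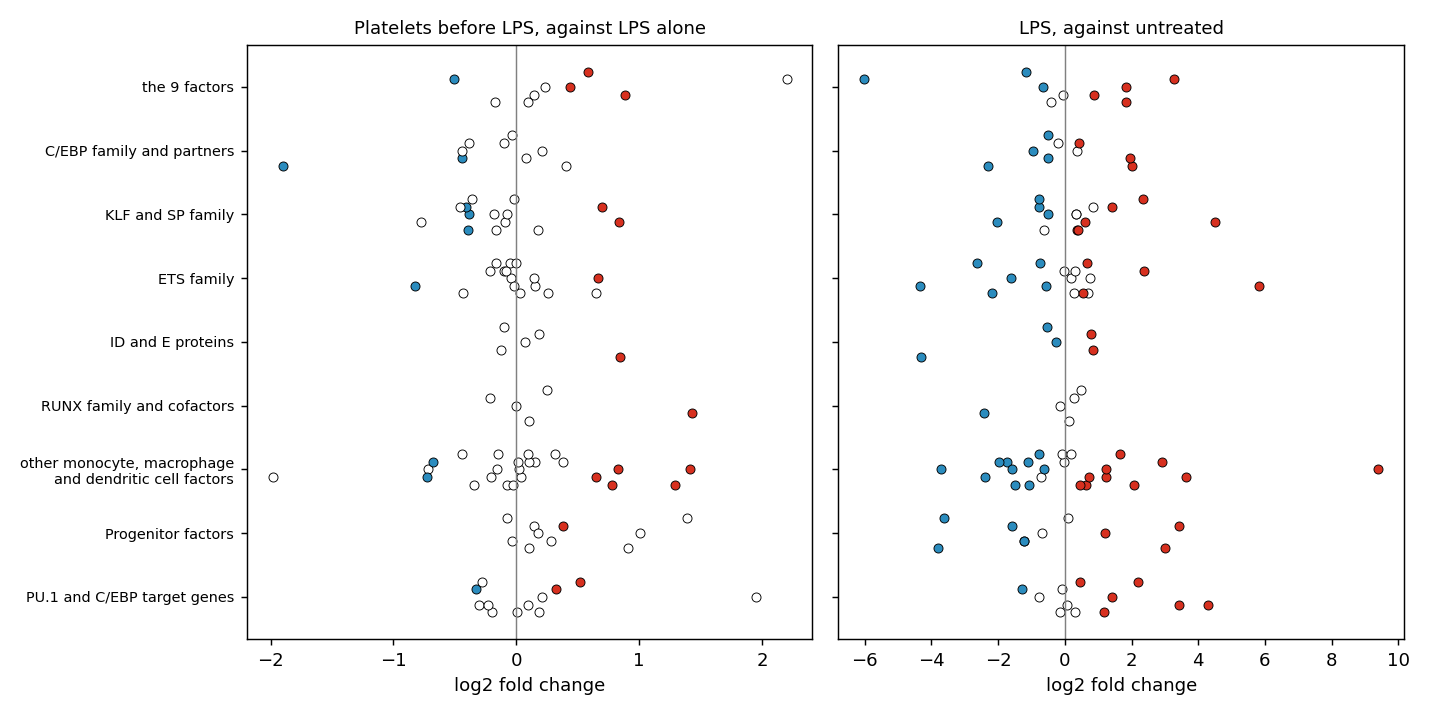
Log2 fold change (x axis) of every tested gene in the 9 factors and in 8 lists of relatives, other factors and targets, for PLT_LPS against LPS (left) and LPS against NC (right); each point is 1 gene, red is called higher, blue is called lower and white is not called, and vertical scatter has no meaning. Called points are few on the left, 4 of the 9 factors, and many on the right, 7 of the 9.

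Of 10 tested progenitor factors, LPS raised 3 and lowered 5 in cells without platelets, where 50.7% of all tested genes changed. Hhex (log2 −1.58), Lmo2 (−1.23) and Myc (−1.22) were among the falls. Hhex was the called gene of this list in PLT_LPS against LPS cells (log2 0.38, adjusted p = 0.0301), a call kept in 12 of 21 alternatives. Of 12 tested targets of PU.1 and C/EBP proteins, LPS raised 6 and lowered 1 in cells without platelets. Among all tested genes 50.7% were called there, 27.7% higher and 23% lower. LPS raised 8 and lowered 2 of these targets in platelet-exposed cells, against 49.4% of all tested genes (27.6% higher, 21.8% lower). Cybb, the NADPH oxidase subunit, was at 3048 ± 218 CPM in LPS against 156 ± 4.08 CPM in NC cells (log2 4.28, SE 0.10, adjusted p = 7.40e-15), and the LPS co-receptor gene Cd14 had a log2 of 3.41 and the macrophage gene Adgre1 one of 2.19. In PLT_LPS against LPS cells 2 targets were higher and 1 lower, with Fcgr1, the high-affinity IgG receptor, at 319 ± 15.5 against 222 ± 7.43 CPM (log2 0.52, SE 0.08, adjusted p = 0.00118). The other 2 were Il6ra (log2 0.33, adjusted p = 0.0328), called in 8 of 21 alternatives, and Itgam (−0.33, adjusted p = 0.0332), called in 12 of 21. Without PLT replicate 1, which is in neither group of that comparison but shares in the estimate of spread, 4 targets were higher and 5 lower, and the count over all tested genes was 1640 against 957 with it.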

How the data were processed

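For each of the 12 libraries the authors deposited raw, whole-number counts of reads by gene. Per the labels' protocols, cDNA came from the SMARTer v4 kit and libraries from Nextera XT, with no molecular identifiers named, so floors cover counting error only. Per the submitters' processing notes, the tools were STAR 2.7.9a, fastp 0.23.1, featureCounts with Subread 2.0.1, and Salmon 1.5.2. Genome build, annotation and strandedness: not given in the sources used here. Groups and replicate numbers came from the titles.

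Counts passed through filterByExpr and TMM scaling and were fitted with edgeR 4.0.16 under R 4.3.3 (quasi-likelihood, 12 libraries, 4 group means, two-sided, Benjamini-Hochberg over 13151 genes, threshold 0.05), after a test of the script on simulated data. Alternatives were other scalings (including DESeq2's RLE factors), no filter or a stricter one (1 CPM and 10 counts in 3 libraries), a replicate block, DESeq2 1.42.0, limma-voom (limma 3.58.1), fits of the compared groups alone, and each library left out in turn. Those for other lists and the count ratio were added after seeing the data.

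The members and lists were chosen with earlier results of these data known. The 9 factors are named throughout, with up to 3 called genes per other list and comparison by smallest p, and the 2 genes most alike per factor (log2 CPM, prior count 2, without predicted genes and pseudogenes). Pf4, Mmp8, Cd3e and genes named by their overlap were chosen after their values were seen. Exons of 5 of the 9 factors overlap another gene on the opposite strand in GENCODE M21. Promoters are from RefSeq (GRCm38.p6). Results for some genes are not reported here.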

Additional observations from a re-analysis of the deposited data

Results flagged for a closer look

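For 9 genes named here from the other lists the platelet effect differed between cells given LPS and cells not given it, by the interaction in edgeR, adjusted over all genes tested. The value is the platelet log2 fold change after LPS minus that without LPS. It was positive for Runx3 (1.40, adjusted p = 0.0306), Klf10 (0.95, adjusted p = 0.0219), Elk3 (0.74, adjusted p = 0.00337), Il6ra (0.68, adjusted p = 0.00859), Irf8 (0.66, adjusted p = 0.0146) and Fcgr1 (0.50, adjusted p = 0.0487). It was negative for Trib3 (−2.21, adjusted p = 0.0141), Spic (−1.55, adjusted p = 0.00277) and Tfec (−0.57, adjusted p = 0.0464). Irf8 averaged 186 ± 6.14 CPM in PLT_LPS against 108 ± 13.3 CPM in LPS cells, and 331 ± 8.89 CPM in PLT against 304 ± 11.7 CPM in NC cells (SD, n = 3 each). Spic, Elk3 and Il6ra were called in 20 of 20 alternatives, Trib3 and Irf8 in 18, Klf10 in 12, Runx3 in 11, and Tfec and Fcgr1 in 5. All 9 kept their direction in these alternatives. None of the 9 lineage factors was called in this interaction.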

How the results depend on the processing

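Of 45 results of the 9 factors, 22 were called, and 0 of those 22 changed direction under any alternative run. The number called was 7 for LPS against NC and for PLT_LPS against PLT with each library left out, 3 to 4 for PLT_LPS against LPS, 2 to 4 for PLT against NC and 0 to 1 for the interaction. The interaction called 1, Runx1, without the filter (log2 0.73, adjusted p = 0.00223), with DESeq2 and without PLT replicate 3 (adjusted p = 0.0170). Restricting to the groups compared was not run for it.

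The 5 results that changed direction had log2 values of at most 0.11 in size. Spi1 for PLT against NC was 0.00296 with RLE factors, 0.0205 with upper-quartile factors and 0.00294 with DESeq2, and −0.0900 to 0.0436 with libraries left out. The Klf2 interaction was −0.0225 with RLE factors and with DESeq2, −0.0378 with upper-quartile factors, and −0.0904 to 0.0842 with libraries left out. Runx1 for PLT_LPS against PLT was −0.17 with upper-quartile factors, −0.30 with library size alone and −0.12 to 0.22 with libraries left out. Cebpa for LPS against NC was −0.138 to 0.0382 and Cebpb for PLT against NC −0.0161 to 0.204 with libraries left out.

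Library size alone moved the median of all genes by −0.38 for LPS against NC and −0.36 for PLT_LPS against PLT. Cebpa was then called lower in both (log2 −0.45 and −0.55), and DESeq2 called it in PLT_LPS against PLT (−0.24, adjusted p = 0.0425). Without LPS replicate 1 both other LPS libraries hold 0 Sox4 counts, so its log2 of −10.05 for LPS against NC gives no size. Runx1 in PLT against NC was also not called with RLE factors (adjusted p = 0.0560), library size alone (adjusted p = 0.0553) or only those groups (adjusted p = 0.130).

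Deviations from the group means correlated at −0.23 to 0.14 between libraries with the same replicate number. These values show no pairing by number, but 3 libraries a group cannot exclude a shared source. The replicate block gave 3 called for PLT against NC and 3 for PLT_LPS against LPS, without Runx1 (adjusted p = 0.0515) and Cebpb (adjusted p = 0.0804), with the other 3 comparisons at 7, 7 and 0. The cause of these shifts was not tested. Depth limits Sox4 after LPS and Klf4, which had 58 to 197 counts.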
